A study of Rattus norvegicus with 4 samples.

Results

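The comparison described here sets 2 hydrogels that carry a single modification against each other, L-SFMA against N-SFMA. It uses 2 of the 4 samples of the series, 1 library a side, and the 11967 of 18755 listed genes that reached at least 1 FPKM (reads scaled to the length of the gene model and to the library's summed count) in either library. Each library came from primary cortical cells taken from Sprague Dawley rats on embryonic day 16 and kept for 24 h in Neurobasal medium with 2% B27 under 5% CO2, with 100000 cells in each of 5 wells. No genetic change or drug was named for any sample, so the hydrogel under the cells is the labelled difference. The name SFMA is shared by all the gels, and the sources used here do not say what N, L or SFMA stand for or whether the wells were pooled. The series addressed how an adhesion cue of the kind cells offer each other, placed in a gel, acts on neural growth. The NL-SFMA library, whose name joins both letters, is given beside some values as a description only, because its comparisons share these libraries. The SFMA library was not used.

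The embryonic cortex at this age holds radial glia, the dividing stem cells that line the ventricle, along with intermediate progenitors and young neurons that migrate outwards and extend axons. Radial glia are kept in the progenitor state by Notch signalling, in which a ligand such as Delta on one cell cleaves a Notch receptor on its neighbour, and the freed receptor fragment joins the DNA-binding protein Rbpj to switch on Hes repressors. Cadherins and cell adhesion molecules of the immunoglobulin family hold neighbouring cells together and guide growing axons, and N-cadherin (Cdh2) and L1cam are the best known of them in developing neurons.

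The N-SFMA library held 15429180 counted reads over 16691 genes, and the L-SFMA library held 16340264 reads over 17156 genes. Reads of mitochondrially encoded genes made up 2.23% and 2.33% of them, against 5.89% in NL-SFMA. The cells carried the markers of their labelled tissue on both gels. Tubb3, the neuronal beta-tubulin, was at 2602 FPKM on N-SFMA and 1957 on L-SFMA, and the projection neuron factor Neurod2 was at 167 and 219.6 FPKM. The radial glia factor Pax6 was present as well, at 15.4 and 16.9 FPKM. Paired values given without a gel name are in the order N-SFMA, L-SFMA. In bulk samples, fewer cells of a type and less RNA per cell cannot be told apart.

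The 2 libraries were close to each other. A difference is given below as L-SFMA minus N-SFMA on the log2(FPKM + 1) scale, which understates changes of low genes, and a gene is called when it lies at least 1.5-fold away, a log2 difference of 0.585. By that rule 364 genes (3.04% of those tested) were higher on L-SFMA and 131 (1.09%) were lower, together 495 genes or 4.14%. Against the same rule, NL-SFMA differed from N-SFMA in 3754 of 11944 genes (31.4%) and from L-SFMA in 3465 of 12064 (28.7%). The SD of the log2 differences over genes was 0.27 for L-SFMA minus N-SFMA, 0.58 for NL-SFMA minus N-SFMA and 0.56 for NL-SFMA minus L-SFMA. At least 2-fold, 47 genes (0.393%) were higher and 31 (0.259%) lower on L-SFMA. As each hydrogel has 1 library, replicate spread and p-values are lacking, and a difference between these libraries cannot be told apart from one between any 2 cultures. Folds of single genes below are ratios of CPM, the count scaled to the library's summed count, with an exact 95% interval that covers counting error only.

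**Figure D1:**
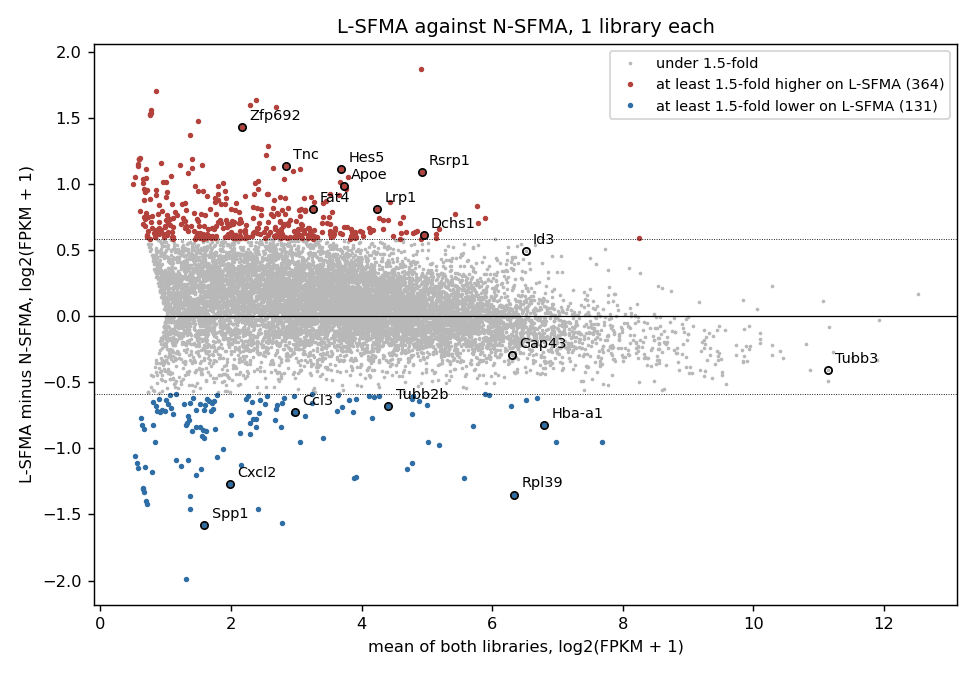
Each dot is 1 of the 11967 tested genes; the x axis is the mean of both libraries and the y axis the difference L-SFMA minus N-SFMA, both on the log2(FPKM + 1) scale. The 364 genes at least 1.5-fold higher and the 131 at least 1.5-fold lower lie outside the dotted lines, and the named genes are circled.

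The whole cloud of genes leaned to L-SFMA. The median difference over all tested genes was 0.08, with quartiles at -0.08 and 0.25, and 7515 genes (62.8%) were above 0. Medians of gene lists as measured are to be read against that value. Counts of calls are to be read against 3.04% higher and 1.09% lower over all genes, so that 1 call in a list of 25 to 36 genes is near the share over all genes. A gene that reached 1 FPKM in 1 library only, such as Notch3, Fat3 or Spp1, entered through the library where it was higher, so counts and medians over lists are descriptions. Scaling the libraries with edgeR's TMM factors moved the log2 ratio of L-SFMA to N-SFMA by -0.09, and DESeq2's size factors moved it by -0.10. As 1 FPKM was added after scaling, differences of low genes moved by less. The median over tested genes moved by -0.08 with TMM and -0.09 with DESeq2's factors. The split of 1.5-fold calls then changed from 364 higher and 131 lower to 220 higher and 184 lower with TMM, and to 214 higher and 188 lower with DESeq2's factors. Of the 364 higher genes, 346 had a counting interval above 1 and 166 had one above 1.5. Of the 131 lower genes, 111 had an interval below 1 and 31 lay beyond 1.5-fold over the whole interval.

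The difference also followed the length of the gene model. Across genes, which are not replicates, it correlated with log2 length at Pearson r = 0.26. The 267 models under 0.5 kb departed from the trend, with a median of -0.07, 47 genes (17.6%) called higher and 50 (18.7%) lower. The 525 genes of 0.5 to 1 kb had a median difference of -0.12, the 5042 genes of 2 to 4 kb one of 0.06, and the 633 genes of 8 kb and over one of 0.25. No gene of 4 kb or more was 1.5-fold lower, while 65 of the 3067 genes of 4 to 8 kb and 31 of the 633 longest genes were 1.5-fold higher. Length moved with many of the gene groups described below, and its part in those results was not tested. Lists can share members (Tnc is both a radial glia and a matrix gene, for example), so they are not independent. Lists are given as measured, and with the median and calls left after the smooth trend with length was taken off. That trend includes the lean common to all genes, so values with it removed are to be read against 0. Part of each change in a median, call or sign with the trend removed is this common lean and not length. With the trend removed, 270 genes were higher and 109 lower, of which 239 and 102 were among those called as measured.

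**Figure D2:**
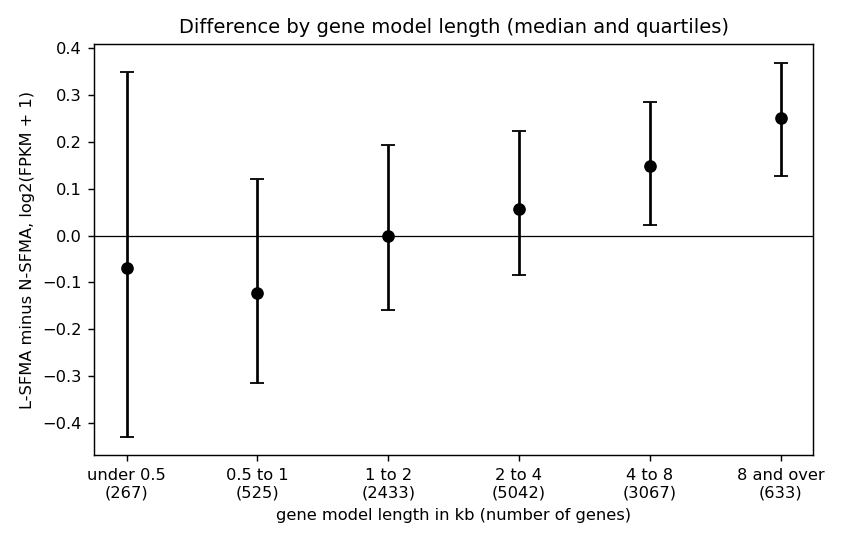
The y axis is the difference L-SFMA minus N-SFMA on the log2(FPKM + 1) scale and the x axis bins of gene model length in kb with the number of genes in each; dots are medians and bars run from the lower to the upper quartile. Medians go from -0.12 at 0.5 to 1 kb to 0.25 at 8 kb and over, and the shortest bin, at -0.07, has the widest quartiles.

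N-cadherin, the catenin it binds, L1cam and Ncam1 differed by less than 1.5-fold between the gels. Cdh2 had 5663 reads (83.7 FPKM) on N-SFMA and 6974 reads (97.3 FPKM) on L-SFMA, a ratio of 1.16-fold (1.12 to 1.20), and was at 154 FPKM on NL-SFMA. Its partner Ctnnb1, beta-catenin, was at 259 FPKM on N-SFMA and 263 on L-SFMA, with a counting interval of 0.991 to 1.04 around a ratio of 1.01. The difference of 0.02 for Ctnnb1 changed sign with TMM, with DESeq2's factors and with the length trend removed. L1cam, which binds itself on the next cell and promotes axon growth, was at 40.9 FPKM on N-SFMA and 51.2 on L-SFMA, and Ncam1, the neural cell adhesion molecule, was at 64.1 FPKM on N-SFMA and 79.5 on L-SFMA, ratios of 1.25-fold (1.20 to 1.31) and 1.24-fold (1.21 to 1.28). Both are long gene models, and with the length trend removed their log2 differences were 0.15 and 0.08. Among the 36 tested classical cadherins, catenins and immunoglobulin-type adhesion molecules, 1 was called higher and none lower, and the median was 0.21 (0.09 with the length trend removed). The called gene was Igsf11, a homophilic adhesion molecule, at 4.88 FPKM on N-SFMA and 7.87 on L-SFMA, and its call was lost with TMM, with DESeq2's factors and with the length trend removed. Cdh24, a type II cadherin outside this list, is among the largest differences described further on. Next in size came Cntn2, the axonal contactin TAG-1, at 68.4 FPKM on N-SFMA and 99.1 on L-SFMA, a ratio of 1.45-fold (1.4 to 1.50).

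The giant cadherins had the highest median of all lists as measured, and the second highest with the length trend removed, after the vascular list of 6 tested genes. Fat, Dachsous and Celsr proteins are very large cadherins that pass polarity between neighbouring cells, and Fat4 and Dchs1 bind each other across the cell border. All 8 tested members were higher on L-SFMA, 4 of them past 1.5-fold and none lower, with a median of 0.56 (0.37 with the length trend removed, when none passed 1.5-fold). With TMM or DESeq2's factors 2 calls remained. Fat4 had 1584 reads (6.17 FPKM) on N-SFMA and 3153 reads (11.6 FPKM) on L-SFMA, a ratio of 1.88-fold (1.77 to 2.00). Its ligand Dchs1 was at 24.0 FPKM on N-SFMA and 37.2 on L-SFMA, a ratio of 1.55-fold (1.49 to 1.61). The neuronal cadherin Celsr3, which is needed for long axon tracts, had a ratio of 1.72-fold (1.64 to 1.80), and Celsr2 one of 1.64-fold (1.54 to 1.74). The smallest differences of the list were those of Celsr1 (0.41) and of Fjx1 (0.41), a kinase-like regulator of Fat binding whose gene model is only 2102 bases long. NL-SFMA held Fat4 at 14.6, Dchs1 at 33.6, Celsr3 at 20.1 and Celsr2 at 15.4 FPKM, so the NL-SFMA library lay above N-SFMA for each of these. The members' gene models had a median length of 11724.5 bases, against 2985 over all tested genes.

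Some Notch readouts and radial glia genes were among the larger differences toward L-SFMA. The promoters of the Notch readouts Hes5 and Hes1 and of the radial glia matrix gene Tnc are shown first because Tnc and Hes5 have the largest differences of the group and Hes1 is the relative of Hes5, and because all 3 hold the TGGGAA core that Rbpj is known to bind. Sequences are the 250 bases before the annotated start from RefSeq (build GRCr8), 5′ to 3′ on the gene's strand, with TGGGAA or its reverse complement TTCCCA in capitals.
Hes5 (chr5:170804327-170804576, plus strand): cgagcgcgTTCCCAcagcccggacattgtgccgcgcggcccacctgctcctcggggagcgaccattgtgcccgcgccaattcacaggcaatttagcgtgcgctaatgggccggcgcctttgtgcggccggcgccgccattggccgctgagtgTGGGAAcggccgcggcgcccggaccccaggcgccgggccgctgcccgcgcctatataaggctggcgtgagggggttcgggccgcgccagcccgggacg
Hes1 (chr11:84213046-84213295, minus strand): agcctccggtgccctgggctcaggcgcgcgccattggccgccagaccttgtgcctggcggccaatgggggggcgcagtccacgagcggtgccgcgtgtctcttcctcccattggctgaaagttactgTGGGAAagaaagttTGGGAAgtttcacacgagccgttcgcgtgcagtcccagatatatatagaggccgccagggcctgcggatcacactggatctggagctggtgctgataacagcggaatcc
Tnc (chr5:82476132-82476381, minus strand): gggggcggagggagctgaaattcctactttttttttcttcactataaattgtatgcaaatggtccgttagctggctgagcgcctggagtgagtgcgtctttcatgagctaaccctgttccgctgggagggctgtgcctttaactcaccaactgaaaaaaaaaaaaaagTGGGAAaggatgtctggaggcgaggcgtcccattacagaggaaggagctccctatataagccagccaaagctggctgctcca
In Hes5 the matches begin 242 and 98 bases before the start, in Hes1 123 and 109 before it, and in Tnc 82 before it. Searched on both strands, TGGGAA is in 7387 of 33469 RefSeq promoters of this length (22.1%), and the longer GTGGGAA, which contains it, is in 1764 (5.27%). Of the 22 tested Notch pathway genes matched to a promoter, 8 held TGGGAA: Dll1, Hes1, Hes5, Lfng, Maml3, Mib1, Notch4 and Rbpj. A match describes the letters and does not show binding.

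Hes5, the Hes repressor most closely tied to Notch in neural progenitors, had 71 reads (7.77 FPKM) on N-SFMA and 174 reads (18.0 FPKM) on L-SFMA, a ratio of 2.31-fold (1.75 to 3.09). Hes1, its relative, had 40 reads (1.81 FPKM) on N-SFMA and 72 reads (3.08 FPKM) on L-SFMA, a ratio of 1.70-fold (1.14 to 2.57). Both genes were highest on L-SFMA and lowest on NL-SFMA, where Hes5 was at 5.84 and Hes1 at 1.38 FPKM. Among the receptors, Notch1 was at 7.40 FPKM on N-SFMA and 12 on L-SFMA, a ratio of 1.63-fold (1.51 to 1.75), Notch2 had a ratio of 1.64-fold (1.43 to 1.89), and Notch3, the receptor of mural cells and some progenitors, had 64 reads (0.564 FPKM) on N-SFMA and 199 reads (1.65 FPKM) on L-SFMA, having passed the filter only through L-SFMA. The ligands Dll1 and Jag2 had ratios of 1.41-fold (1.26 to 1.57) and 1.49-fold (1.27 to 1.76), and the glycosyltransferase Lfng, which tunes the receptor's response to ligand, had 1.49-fold (1.25 to 1.78). Nrarp, a feedback inhibitor switched on by the pathway, had a ratio of 1.46-fold (1.17 to 1.83). Rbpj itself was at 23.4 and 23.2 FPKM. The pathway genes below the filter were Dll4 with 46 reads on N-SFMA and 28 on L-SFMA, Hey2 with 29 and 14, and Heyl with 1 and 2. Of the 25 tested Notch pathway genes, 3 were past 1.5-fold higher on the log2(FPKM + 1) scale and none lower. These were Hes5, Notch3 and Notch1, while Hes1 and Notch2 were not called despite their CPM ratios. In all 21 were above 0 and 4 below, with a median of 0.22 (0.13 with the length trend removed). With TMM 2 calls remained, and with the length trend removed 1, that of Hes5. Hes5, at 592 bases one of the shortest models here, had a log2 difference of 1.11 as measured and 1.22 with the length trend removed.

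Of the 31 tested radial glia markers, 6 were past 1.5-fold higher and none lower, with a median of 0.23 that was little changed (0.22) by removing the length trend. Of these calls 4 remained with the length trend removed and 3 with TMM. Tnc, tenascin C, a matrix glycoprotein of the progenitor niche, had 447 reads (3.85 FPKM) on N-SFMA and 1185 reads (9.63 FPKM) on L-SFMA, a ratio of 2.5-fold (2.24 to 2.80). The Sox factors of neural progenitors differed in size: Sox21 was at 4.52 FPKM on N-SFMA and 7.95 on L-SFMA (ratio 1.76-fold, 1.51 to 2.05) and Sox3 at 10.9 FPKM on N-SFMA and 17.2 on L-SFMA (ratio 1.57-fold, 1.33 to 1.86), while Sox2 was at 44.4 and 52.3 FPKM, a log2 difference of 0.23. Gli3, the transcription factor that restrains hedgehog signalling in the cortex, had a ratio of 1.73-fold (1.47 to 2.03). Pax6 differed by 0.13 and the intermediate filament gene Vim by -0.14 on the log2 scale. The 37 cell cycle genes had a median of 0.02, with none past 1.5-fold in either direction, and this median turned negative with TMM, with DESeq2's factors and with the length trend removed. The 17 intermediate progenitor and proneural genes had a median of 0.07, which turned negative under both other scalings, and none was called, although Insm1, a factor of neurogenic divisions, was at 42.5 FPKM on N-SFMA and 61.7 on L-SFMA (ratio 1.45-fold, 1.37 to 1.53).

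**Figure D3:**
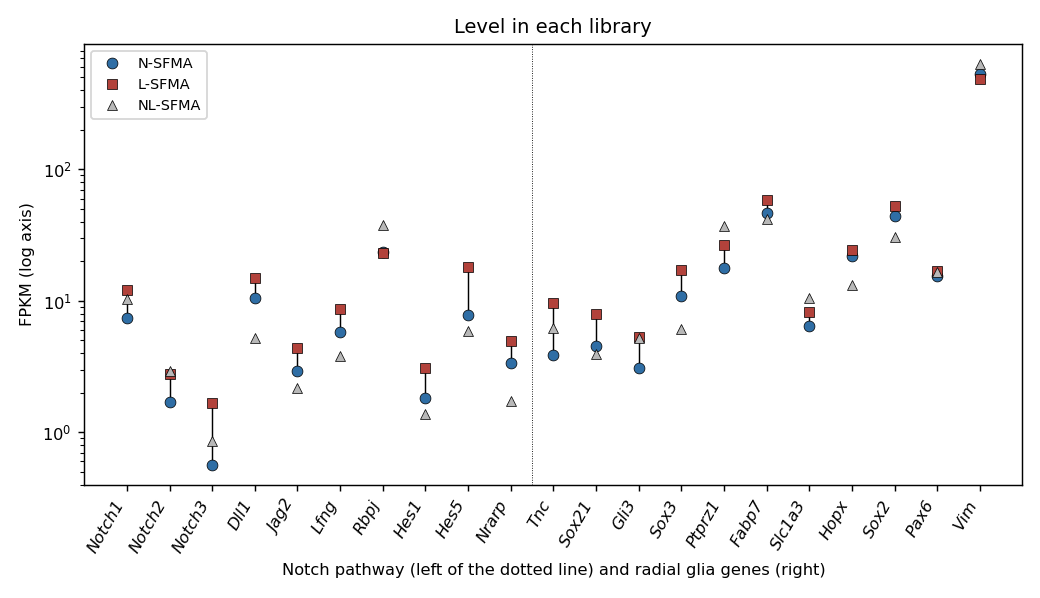
The y axis is FPKM on a log axis for 10 Notch pathway genes and 11 radial glia genes; circles are N-SFMA, squares L-SFMA and triangles NL-SFMA, 1 library each, and lines join N-SFMA and L-SFMA. Hes5 is at 7.77, 18.0 and 5.84 FPKM on the 3 gels, while Rbpj, Pax6 and Vim lie close together on N-SFMA and L-SFMA.

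Markers of astrocytes, which radial glia give rise to and share many genes with, lay on the same side. Of 19 tested astrocyte markers 3 were past 1.5-fold higher and none lower, with a median of 0.32 (0.16 with the length trend removed), and 2 calls remained with TMM and with the length trend removed. Apoe, the lipid carrier protein secreted by glia, had 276 reads (8.43 FPKM) on N-SFMA and 612 reads (17.7 FPKM) on L-SFMA, a ratio of 2.09-fold (1.81 to 2.42), and was at 2.86 FPKM on NL-SFMA. Gfap, the astrocyte intermediate filament, had 55 reads (1.07 FPKM) on N-SFMA and 127 reads (2.32 FPKM) on L-SFMA. Of the 3 members below 0, Cst3, cystatin C, differed most, at 47.9 FPKM on N-SFMA and 36.0 on L-SFMA. Aqp4, the water channel of mature astrocytes, had 6 and 3 reads and stayed below the 1 FPKM filter.

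FGF and BMP signalling genes were also placed toward L-SFMA. FGF receptors act through ERK kinase, and Spred and Dusp proteins are feedback inhibitors of that route. Of 19 tested FGF-ERK genes 2 were past 1.5-fold higher and none lower, with a median of 0.35 (0.23 with the length trend removed). Neither call, of Fgfr3 and Fgfbp3, remained with TMM, with DESeq2's factors or with the length trend removed. Fgfr3 was at 10.6 FPKM on N-SFMA and 16.7 on L-SFMA, a ratio of 1.57-fold (1.43 to 1.73), against 1.33-fold (1.26 to 1.4) for Fgfr1 and 1.37-fold (1.25 to 1.51) for Fgfr2. Fgfbp3, a secreted carrier of FGFs, had a ratio of 1.60-fold (1.36 to 1.89), Spred2 1.53-fold (1.36 to 1.71), and the phosphatase Dusp4 1.33-fold (1.28 to 1.37). BMPs act through Smad proteins to switch on Id genes, which hold back neuronal differentiation. Of 16 tested BMP pathway and Id genes 2 were past 1.5-fold higher and none lower, with a median of 0.28 (0.24 with the length trend removed, when 1 call remained). Nog, the secreted BMP antagonist noggin, had 37 reads (1.47 FPKM) on N-SFMA and 96 reads (3.61 FPKM) on L-SFMA, and the inhibitory Smad7 had 110 reads (1.65 FPKM) on N-SFMA and 225 reads (3.20 FPKM) on L-SFMA. Id3 was at 76.0 FPKM on N-SFMA and 107 on L-SFMA, and at 33.2 on the NL-SFMA gel, a ratio of L-SFMA to N-SFMA of 1.41-fold (1.31 to 1.52), and Id1 had a ratio of 1.26-fold (1.12 to 1.42). The 36 Wnt pathway genes had a median of 0.24 (0.14 with the length trend removed) with none past 1.5-fold, led by Dvl1, a cytoplasmic relay of Frizzled receptors, with a ratio of 1.47-fold (1.36 to 1.59).

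Axon guidance genes leaned to L-SFMA as a broad group of small differences. Plexins and neuropilins are the receptors of semaphorins, which repel or attract growth cones. Of 50 tested guidance genes 49 were above 0, 6 were past 1.5-fold higher and none lower, with a median of 0.26 (0.14 with the length trend removed, when none passed 1.5-fold). With TMM 2 calls remained. The receptor Plxna3 had 1665 reads (14.6 FPKM) on N-SFMA and 2998 reads (24.9 FPKM) on L-SFMA, a ratio of 1.70-fold (1.60 to 1.81), and Plxna4 had 1.61-fold (1.52 to 1.70). Their co-receptor Nrp1 was at 18.6 FPKM on N-SFMA and 28.5 on L-SFMA. Among the ligands, Sema4d had a ratio of 1.76-fold (1.56 to 1.99), Sema5b 1.64-fold (1.48 to 1.81) and Sema6c 1.56-fold (1.46 to 1.66). On NL-SFMA, Plxna4 and Nrp1 were above both single gels, at 18.4 and 32.9 FPKM, while Sema4d, Sema5b and Sema6c were below both, at 3.51, 7.30 and 23.1 FPKM.

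Matrix and lipoprotein receptor genes showed the same lean. Of 32 tested matrix genes 3 were past 1.5-fold higher and none lower, with a median of 0.30 (0.12 with the length trend removed), and 2 calls remained with TMM and with the length trend removed. After Tnc the largest was Col4a1, a chain of basement membrane collagen, with 160 reads (1.57 FPKM) on N-SFMA and 401 reads (3.72 FPKM) on L-SFMA (ratio 2.37-fold, 1.97 to 2.86), while its partner chain Col4a2 had a ratio of 1.54-fold (1.36 to 1.76). Agrn, agrin, a heparan sulfate proteoglycan of basement membranes and synapses, was at 17.9 FPKM on N-SFMA and 27.2 on L-SFMA. Of 25 tested lipoprotein receptor and sterol transport genes 3 were past 1.5-fold higher and none lower, with a median of 0.31 (0.18 with the length trend removed, when 1 call remained, against 2 with TMM). Lrp1, a large endocytic receptor that takes up Apoe, had 3024 reads (13.3 FPKM) on N-SFMA and 5790 reads (24.0 FPKM) on L-SFMA, a ratio of 1.81-fold (1.73 to 1.89), and was at 22.4 FPKM on NL-SFMA. Integrins and focal adhesion genes, the machinery that binds cells to matrix, had no call among 24 and a median of 0.22 (0.04 with the length trend removed). YAP, TEAD and SRF respond to tension in the cell, and their list holds these factors and their regulators as well as targets. Its 30 tested genes had a median of 0.14 (0.01 with the length trend removed), with 22 above 0 and 8 below. Summed, the list was lower on L-SFMA, at 6756 FPKM on N-SFMA and 5388 on L-SFMA. By the 1.5-fold rule 2 were higher and none lower, and 1 call remained with TMM and with the length trend removed. The calls were Ccn2, connective tissue growth factor, with 54 reads (1.27 FPKM) on N-SFMA and 147 reads (3.27 FPKM) on L-SFMA, and Acta2, smooth muscle actin, at 11.1 FPKM on N-SFMA and 17.2 on L-SFMA.

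Large chromatin regulators leaned to L-SFMA, and by less once length was taken off. Of 40 tested chromatin remodellers and histone methyltransferases 4 were past 1.5-fold higher and none lower, with a median of 0.31 that became 0.05 with the length trend removed. None of the 4 calls remained with TMM, with DESeq2's factors or with the length trend removed. The histone methyltransferases Kmt2c and Kmt2a had ratios of 1.69-fold (1.57 to 1.82) and 1.66-fold (1.55 to 1.78), and the acetyltransferases Crebbp and Ep300 had 1.64-fold (1.51 to 1.78) and 1.61-fold (1.48 to 1.76). Their gene models are 16382, 15277, 10107 and 10762 bases long.

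**Figure D4:**
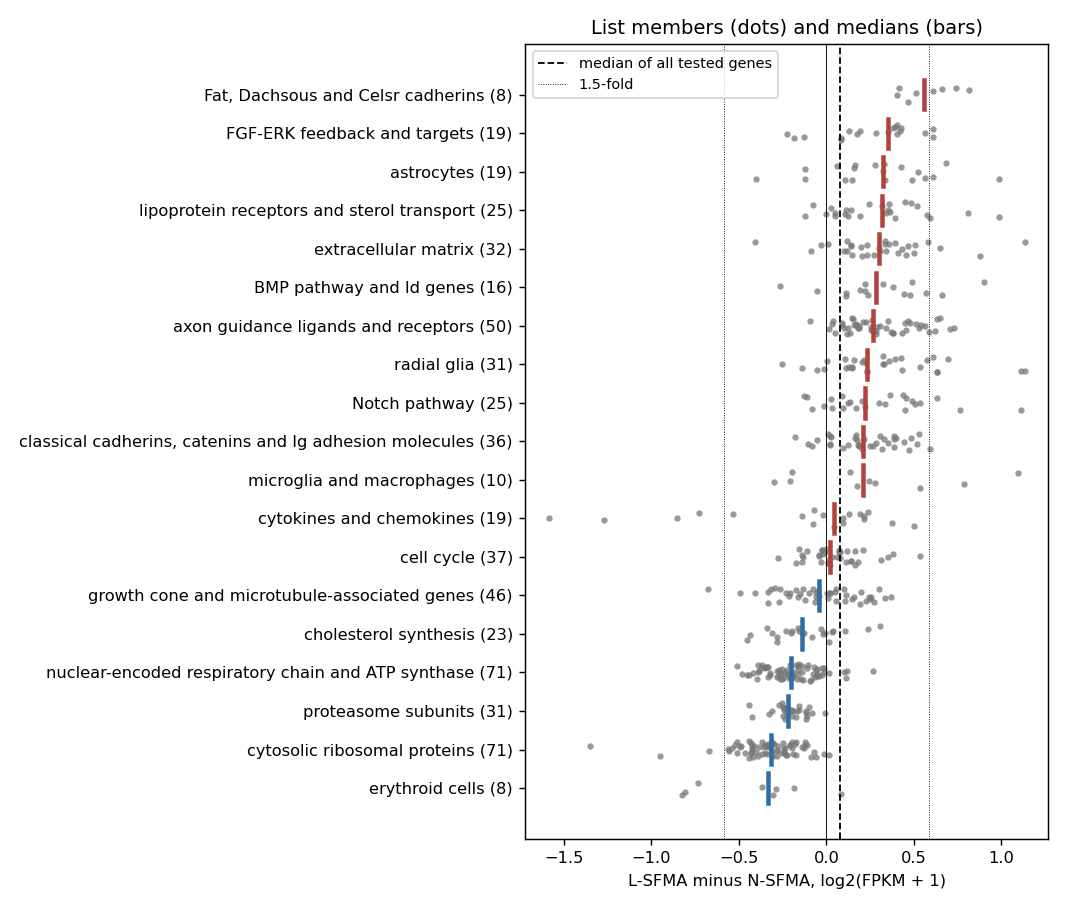
The x axis is the difference L-SFMA minus N-SFMA on the log2(FPKM + 1) scale; each dot is a tested member of the list named at the left, with the number of members in brackets, and each bar is the list's median. Of the lists plotted, the Fat, Dachsous and Celsr cadherins have the highest median, 0.56, and cytosolic ribosomal proteins and erythroid markers have the lowest, -0.31 and -0.34.

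Gap43 and several tubulin genes were on the other side, higher on N-SFMA. Gap43, a growth cone membrane protein, had 1982 reads (86.7 FPKM) on N-SFMA and 1710 reads (70.7 FPKM) on L-SFMA, a ratio on N-SFMA over L-SFMA of 1.23-fold (1.15 to 1.31). Tubb3 had 70889 reads (2602 FPKM) on N-SFMA and 56484 reads (1957 FPKM) on L-SFMA, a ratio in the same direction of 1.33-fold (1.31 to 1.34). Tuba1a, the main alpha-tubulin of young neurons, was at 2673 FPKM on N-SFMA and 1899 on L-SFMA (1.41-fold, 1.4 to 1.42), and Tubb2b at 25.9 FPKM on N-SFMA and 15.8 on L-SFMA (1.64-fold, 1.43 to 1.87). Tubulin genes are close copies of each other, so reads may have been split between them. Of 46 tested growth cone and microtubule genes 1, Tubb2b, was past 1.5-fold lower on L-SFMA and none higher, with a median of -0.04 (-0.18 with the length trend removed, when 2 were lower). Within this list 22 members were above 0 and 24 below. Dcx, doublecortin, a microtubule protein of migrating neurons, differed by 0.20 and Map2, of dendrites, by 0.11, and both were slightly below 0 with the length trend removed (-0.03 and -0.11). The actin gene Actg1 was at 2156 FPKM on N-SFMA and 1629 on L-SFMA (1.32-fold, 1.31 to 1.34).

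Identity genes of neurons held 1 call. No gene of 28 tested markers of excitatory cortical neurons was called, and their median was 0.11 (0.06 with the length trend removed). The largest differences were those of Bhlhe22 and Pou3f3, factors of upper layer neurons, with ratios of 1.46-fold (1.4 to 1.53) and 1.45-fold (1.4 to 1.52). The deep layer factor Bcl11b had a ratio of 1.30-fold (1.24 to 1.36). Of 29 interneuron genes 1 was past 1.5-fold lower on L-SFMA, the neuropeptide Cck, at 16.4 FPKM on N-SFMA and 10.2 on L-SFMA. With the length trend removed Cck, at -0.55, was no longer called, and Gsx2, a progenitor factor of the ganglionic eminence at 2.41 FPKM on N-SFMA and 4.03 on L-SFMA, was called higher instead (0.61). The interneuron median of 0.04 turned negative with TMM, with DESeq2's factors and with the length trend removed. Another neuropeptide, Sst, was at 109.6 FPKM on N-SFMA and 82.3 on L-SFMA. The 43 synapse genes had no call and a median of 0.11, which was -0.03 with the length trend removed, led by the adhesion receptor Adgrl1 with a ratio of 1.52-fold (1.46 to 1.59).

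Small, abundant genes of protein synthesis, respiration and protein breakdown were lower on L-SFMA almost throughout. The cytosolic ribosomal protein list matched 70 symbols, some with more than 1 gene entry, so its counts are of entries. Of 71 tested entries 70 were below 0 and 66 had a counting interval below 1. Their median was -0.31 as measured and with the length trend removed. Past 1.5-fold 3 were lower and none higher, against 9 lower with TMM, 11 with DESeq2's factors and 2 with the length trend removed. Summed over the list, ribosomal protein genes took 3.44% of reads on N-SFMA and 2.74% on L-SFMA, with 2.23% on NL-SFMA. Nuclear-encoded subunits of the respiratory chain and ATP synthase had 66 of 71 tested entries below 0, none called, and a median of -0.20 (-0.18 with the length trend removed). All 31 proteasome subunits were below 0, 30 with a counting interval below 1 and none called, with a median of -0.22 (-0.24 with the length trend removed). The 23 genes of cholesterol synthesis had a median of -0.14 (-0.21 with the length trend removed) and none called, with Fdft1, squalene synthase, at 48.5 FPKM on N-SFMA and 38.2 on L-SFMA. These medians kept their sign under each alternative run. Mitochondrially encoded genes, by contrast, had a median of 0.08 over 12, equal to that of all genes, and it turned negative under both other scalings.

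Ribosomal protein messages are known for a pyrimidine tract at their start, so the start windows of the leading members are shown, from 10 bases before to 20 after the annotated start (RefSeq, build GRCr8, gene strand), with CTTTC in capitals where it occurs.
Rpl39 (chrX:121195877-121195906, minus strand): taatcgcgttcttccggcctgtcCTTTCtc
Rpl9 (chr14:43247580-43247609, plus strand): aggacgttctctctttgccccatctactgc
Rps15a (chr1:181860265-181860294, minus strand): ttttCTTTCcacagtcaccatggtgcgaat
Rpl26 (chr10:54109682-54109711, plus strand): gtcaacttacagaaccggaagtcgcatgta
CTTTC, searched on the gene's strand, is in this window in 25 of 62 ribosomal protein promoters (40.3%) and in 1136 of all 33469 (3.39%). Of 55 tested ribosomal protein genes matched to a window, 23 had the letters. The entries of these genes had a median difference of -0.24 and those of the others one of -0.33. The search took CTTTC anywhere in the window, so this split does not separate genes with a pyrimidine tract at the start from those without. In Rps15a the letters lie before the annotated start, while Rpl9 has a run of mostly C and T at its start but no CTTTC. Rpl39, a small protein of the large subunit, had 719 reads (128 FPKM) on N-SFMA and 295 reads (49.7 FPKM) on L-SFMA, a ratio of N-SFMA to L-SFMA of 2.58-fold (2.25 to 2.97), and was at 138 FPKM on NL-SFMA. Rpl9 had 116 reads (10.6 FPKM) on N-SFMA and 58 reads (5.01 FPKM) on L-SFMA, and was at 15.5 FPKM on NL-SFMA. Both Rpl39 and Rpl9 were lowest on L-SFMA. Rps15a had 7096 reads (471 FPKM) on N-SFMA and 5088 reads (319 FPKM) on L-SFMA, and Rpl26 7096 reads (478 FPKM) on N-SFMA and 5113 reads (325 FPKM) on L-SFMA, and neither was called. The equal counts on N-SFMA stand so in the deposited file. Ribosomal protein genes have many near-identical pseudogene copies, so the counts of single members are uncertain.

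Several inflammatory chemokines were lower on L-SFMA, while the leading markers of microglia, the immune cells of the brain, were higher. Of 19 tested cytokines and chemokines 4 were past 1.5-fold lower on L-SFMA and none higher, against 6 lower with TMM. Spp1, osteopontin, had 102 reads (4.22 FPKM) on N-SFMA and 19 reads (0.743 FPKM) on L-SFMA, a ratio of N-SFMA to L-SFMA of 5.69-fold (3.46 to 9.83). Cxcl2, a neutrophil attractant, had 85 reads (5.14 FPKM) on N-SFMA and 27 reads (1.54 FPKM) on L-SFMA (3.33-fold, 2.14 to 5.35). Ccl4 had 75 reads (3.53 FPKM) on N-SFMA and 34 reads (1.51 FPKM) on L-SFMA and Ccl3 106 reads (9.11 FPKM) on N-SFMA and 63 reads (5.11 FPKM) on L-SFMA, both attractants of macrophages. The interleukin Il1b, not called, had 191 reads (6.63 FPKM) on N-SFMA and 130 reads (4.26 FPKM) on L-SFMA (1.56-fold, 1.24 to 1.96). For each of these NL-SFMA lay below N-SFMA, at 2.07 FPKM for Spp1, 1.71 for Cxcl2, 1.69 for Ccl4, 2.71 for Ccl3 and 3.40 for Il1b. The highest difference of the list was 0.50, for the growth factor Tgfb3, and the heparin-binding factor Mdk was at 357 FPKM on N-SFMA and 416 on L-SFMA. The list's median of 0.04 turned negative without the FPKM filter and under both other scalings.

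Among 10 tested microglia and macrophage markers 2 were past 1.5-fold higher on L-SFMA and none lower, with a median of 0.21 (0.16 with the length trend removed). Tyrobp, a signalling adaptor of myeloid receptors, had 35 reads (4.29 FPKM) on N-SFMA and 89 reads (10.3 FPKM) on L-SFMA, a ratio of 2.40-fold (1.61 to 3.66), and Lyz2, lysozyme, had 235 reads (7.87 FPKM) on N-SFMA and 452 reads (14.3 FPKM) on L-SFMA, a ratio of 1.82-fold (1.55 to 2.14). Spi1, the master factor of the lineage, had 41 and 78 reads. Csf1r, the growth factor receptor of the lineage, was at 2.13 and 2.44 FPKM. In the other direction the receptor Cd14 had 205 and 171 reads. Summed, the list was at 42.1 FPKM on N-SFMA and 56.9 on L-SFMA, with 33.2 on NL-SFMA. Markers of resting microglia were at or near 0 and below the filter: P2ry12 had 0 and 1 reads, Tmem119 2 and 5, and C1qa 4 and 17. The part of myeloid cells in the chemokine values was not tested.

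**Figure D5:**
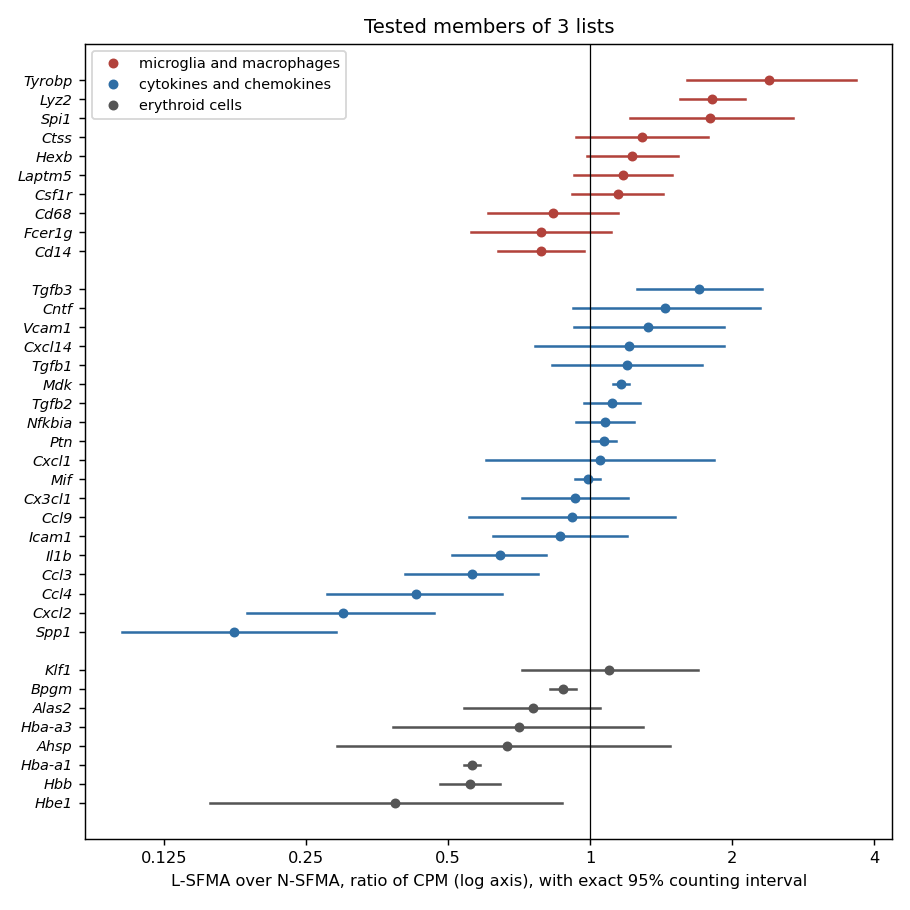
The x axis is the ratio of CPM of L-SFMA to N-SFMA on a log axis, with dots for the ratio and lines for the exact 95% counting interval, for each tested member of the microglia, cytokine and erythroid lists. Tyrobp, Lyz2 and Spi1 lie above 1, and Spp1, Cxcl2, Ccl4, Ccl3 and Il1b and the globins Hba-a1, Hbb and Hbe1 lie below 1 over their whole interval.

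Globins were lower on L-SFMA. Of 8 tested erythroid markers 3 were past 1.5-fold lower and none higher, with a median of -0.34 (-0.28 with the length trend removed). Hba-a1 had 6491 reads (147 FPKM) on N-SFMA and 3866 reads (82.7 FPKM) on L-SFMA (1.78-fold higher on N-SFMA, 1.71 to 1.85), Hbb had 492 reads (8.95 FPKM) on N-SFMA and 290 reads (4.98 FPKM) on L-SFMA and the embryonic globin Hbe1 22 reads (2.30 FPKM) on N-SFMA and 9 reads (0.89 FPKM) on L-SFMA. Summed, the 15 matched erythroid markers were at 239 FPKM on N-SFMA and 157 on L-SFMA, with 123 on NL-SFMA. Klf1, the erythroid transcription factor, had 43 and 50 reads.

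Vascular markers that passed the filter were higher on L-SFMA, and meningeal ones were lower. Of the vascular list, 6 of 20 matched genes passed the filter. All 6 were above 0, 4 with a counting interval above 1, and their median was 0.55 (0.56 with the length trend removed). Without the filter the list's median was 0.04. The members past 1.5-fold were Acta2 and Notch3, of which 1 remained with TMM and none with the length trend removed. Myl9 and Tagln, smooth muscle genes, had ratios of 1.60-fold (1.16 to 2.23) and 1.51-fold (1.24 to 1.83). Endothelial genes below the filter differed in both directions at few reads. The endothelial cadherin Cdh5 had 0 reads on N-SFMA and 2 on L-SFMA and Esam 5 and 14, while Kdr had 16 and 4 and Vwf 14 and 13. Summed, the 20 matched vascular markers were at 52.3 FPKM on N-SFMA and 68.5 on L-SFMA, and their part in the values of Notch3 and Acta2 was not tested. Of 18 meningeal fibroblast genes 3 passed the filter, all below 0, 2 with a counting interval below 1 and none called. Their median was -0.21 (-0.29 with the length trend removed), while without the filter the list's median was -0.002. Nnat, which neurons also express, made up most of that list's level, at 1919 FPKM on N-SFMA and 1659 on L-SFMA. Crabp2, a carrier of retinoic acid, was at 4.18 FPKM on N-SFMA and 2.61 on L-SFMA and the enzyme gene Cyp1b1 at 1.47 FPKM on N-SFMA and 1.25 on L-SFMA. The fibroblast collagen Col1a1 had 23 and 46 reads and Dcn, decorin, 2 and 0. Of 15 oligodendrocyte genes 7 passed, none called, and their median of 0.09 turned negative with a filter of 5 FPKM.

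The remaining stress and signalling lists held few calls. Of 16 tested heat shock genes 2 were higher and 1 lower: Hspb8, a small chaperone, was at 4.04 FPKM on N-SFMA and 7.59 on L-SFMA, Hsf1, the heat shock transcription factor, at 4.08 FPKM on N-SFMA and 7.02 on L-SFMA, and Hspe1, the mitochondrial chaperonin, at 126 FPKM on N-SFMA and 81.7 on L-SFMA. The median of -0.04 (-0.07 with the length trend removed, when 1 higher call remained) turned positive without the FPKM filter. Nqo1, a target of the oxidative stress factor Nrf2, was at 6.31 FPKM on N-SFMA and 10.2 on L-SFMA and was the sole call of 26 oxidative stress genes, whose median of -0.04 (-0.06 with the length trend removed) also turned positive without that filter, and the call was lost with TMM. Bbc3, the cell death protein Puma, was at 15 FPKM on N-SFMA and 24.4 on L-SFMA, and at 3.88 on the NL-SFMA gel, the sole call of 25 p53 and apoptosis genes, whose median of 0.04 turned negative under both other scalings, where the call was lost, and with the length trend removed. None of 32 unfolded protein and integrated stress response genes was called, and their median was -0.03 (-0.06 with the length trend removed). The angiogenic factor Vegfa was at 9.49 FPKM on N-SFMA and 15.7 on L-SFMA (ratio 1.66-fold, 1.49 to 1.84), the sole call of 29 glycolysis and hypoxia genes, whose median was -0.09 (-0.15 with the length trend removed, when the call was lost), and the glycolytic enzyme Pkm was at 199 FPKM on N-SFMA and 153 on L-SFMA. Of 21 immediate early genes, which neurons switch on within minutes of activity, Jun was called, at 17.8 FPKM on N-SFMA and 29.7 on L-SFMA (ratio 1.67-fold, 1.55 to 1.79), and Fos was at 0.816 FPKM on N-SFMA and 1.62 on L-SFMA. The median of that list was 0.17 (0.07 with the length trend removed, when the call was lost). The neurotrophic list had 2 higher and 1 lower of 17 and a median of 0.22 (0.19 with the length trend removed, when 1 higher call remained): Igf2r, the receptor that clears Igf2, had a ratio of 1.79-fold (1.63 to 1.97), Vgf, a peptide precursor induced by neurotrophins, 1.70-fold (1.39 to 2.08), and Nrtn, neurturin, had 18 and 9 reads. Of 13 histone genes 1 was higher and 1 lower, both at few reads, with a median of -0.10 (-0.05 with the length trend removed).

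The largest differences toward L-SFMA among genes with an assigned symbol and at least 5 FPKM in the higher library were those of Zfp692, Mutyh, Tnc, Lime1, Nrbp2, Hes5, Tyrobp, Rsrp1, P3h3, Ghrl, Arsl, Pxdn, Apoe, Cdh24 and Kifc2, from 0.96 to 1.43 on the log2 scale. Zfp692, a zinc finger protein, had 49 reads (1.73 FPKM) on N-SFMA and 191 reads (6.37 FPKM) on L-SFMA, a ratio of 3.68-fold (2.68 to 5.15). Mutyh, a DNA glycosylase that removes adenine paired with oxidised guanine, had 90 reads (2.79 FPKM) on N-SFMA and 267 reads (7.83 FPKM) on L-SFMA (2.80-fold, 2.20 to 3.60). P3h3, a prolyl hydroxylase of collagen, had 387 reads (8.66 FPKM) on N-SFMA and 901 reads (19.0 FPKM) on L-SFMA, and Pxdn, peroxidasin, which cross-links collagen IV, had 267 reads (2.63 FPKM) on N-SFMA and 677 reads (6.30 FPKM) on L-SFMA. Cdh24, a type II cadherin, was at 8.67 FPKM on N-SFMA and 17.8 on L-SFMA, and at 7.53 on the NL-SFMA gel.

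The 15 largest differences toward N-SFMA included 5 pseudogenes. In order of size they were Rpl38-ps9, Rpl39, Cxcl2, Hmgn2-ps4, Rps15al4, Rpl37l1, Ubb-ps1, Rpl9, Mmp9, Hba-a1, Hsp90aa1-ps17, Vstm2a, Cryzl1-ps1, Ifi27 and Krbox1, from -1.46 to -0.73. The symbols ending in ps with a number are pseudogenes, and reads of their parent genes may have been counted there. Mmp9, a matrix metalloprotease of neutrophils and macrophages, had 270 reads (5.68 FPKM) on N-SFMA and 131 reads (2.60 FPKM) on L-SFMA, a ratio of N-SFMA to L-SFMA of 2.18-fold (1.77 to 2.71). Ifi27, an interferon-induced gene, was at 10.4 FPKM on N-SFMA and 5.78 on L-SFMA, and at 2.70 on the NL-SFMA gel. Over all calls, 77 of the 131 lower genes (58.8%) and 97 of the 364 higher genes (26.6%) had no assigned symbol or were numbered pseudogenes, against 9.0% of all tested genes. The lower genes had a median model length of 671 bases and 87 of them (66.4%) were under 1 kb, against 6.62% of all tested genes. They also had few reads, with a median of 90 reads summed over both libraries, against 283.5 for the higher genes and 1078 for all tested genes.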

How the data were processed

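The series holds RNA sequencing of rat cortical cells, 1 library per hydrogel, from 1.5 µg RNA with NEBNext Ultra kits. Each deposited file lists 18755 genes with a read count and an FPKM value. The count column holds raw whole numbers; HISAT2 (no version) and HTSeq 0.13.5 are named in the submitters' processing notes, as are GRCh38 and mRatBN7.2 without a role. The authors' FPKM column is the count over model length and summed count, checked by recovering whole-number lengths. The sources used here give no strand or alignment settings, so reads of overlapping genes on opposite strands may be mixed. Genes reaching 1 FPKM in either library were compared as log2(FPKM + 1) and called at 1.5-fold. Folds are CPM ratios with exact (Clopper-Pearson) 95% intervals conditional on both counts; amplified reads are not independent molecules, so these cover counting error only, and 3 counts, 0.194 and 0.184 CPM, are the floor. The length trend was a lowess fit over 0.3 of the genes. edgeR 4.0.16 and DESeq2 1.42.0 gave scaling factors only. The steps were tested on simulated data.

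Named genes were the 15 largest differences each way with an assigned symbol and at least 5 FPKM, up to 4 members of each of 39 lists (1187 of 1232 listed genes matched) and 8 growth and adhesion genes. Other members are named to fill in their list and were picked with their values known. The members and lists were chosen with earlier results of these data known. Promoters come from RefSeq (GRCr8) by symbol.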

Additional observations from a re-analysis of the deposited data

How the results depend on the processing

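No paired analysis was possible because each hydrogel has 1 library and no shared replicate numbers. For the same reason leaving out a replicate could not be run. The count of genes at least 1.5-fold higher on L-SFMA, 364 as reported, was 586 with a pseudocount of 0.5 FPKM, 863 with 0.1, 180 with a filter of 5 FPKM, 220 with TMM, 214 with DESeq2's size factors and 166 where the whole counting interval had to pass. The count lower, 131 as reported, was 242 with a pseudocount of 0.1, 63 with the 5 FPKM filter, 31 with the interval rule and 54 over assigned symbols without numbered pseudogenes, a setting added after seeing the data. At 2-fold the 47 higher genes became 91 and 179 with the smaller pseudocounts, 18 with the 5 FPKM filter, 21 with the interval rule and 19 over assigned symbols. The 31 lower genes became 47, 78, 10, 9 and 6 under the same settings. Without a filter, with the length trend removed and with sums that leave out mitochondrial, ribosomal protein and globin genes, all 4 counts stayed within 1.5 times of those reported. Of the 78 named genes past 1.5-fold, 59 remained so with TMM, 58 with DESeq2's factors, 48 with the length trend removed and 64 with the 5 FPKM filter, where the other 14 have no value. Ctnnb1, Dcx and Map2 changed sign in at least 1 setting. The medians of 10 of 39 lists did so too, but TMM and DESeq2's factors move all genes in the same direction. They also take the median of all genes below 0, so sign changes under these follow a shift that all genes share in direction. Removing the length trend likewise takes off the lean common to all genes. Depth limits genes of few reads: the genes lower on L-SFMA have a median of 90 reads summed over both libraries, and the cause of the shifts was not tested.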

Other observations

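A set of splicing regulators was gathered after their values were seen, starting from Rsrp1, so it carries no weight as a group. Rsrp1, an arginine and serine rich protein, had 880 reads (19.7 FPKM) on N-SFMA and 2034 reads (43.1 FPKM) on L-SFMA, a ratio of 2.18-fold (2.02 to 2.36). The kinase Clk4, which phosphorylates splicing factors of the SR family, was at 7.26 FPKM on N-SFMA and 12.5 on L-SFMA and its relative Clk1 at 24.5 FPKM on N-SFMA and 35.0 on L-SFMA. Ccnl1, a cyclin found in nuclear speckles, was at 11.9 FPKM on N-SFMA and 19.1 on L-SFMA, Pnisr at 12.2 FPKM on N-SFMA and 19.1 on L-SFMA and Luc7l3 at 23.5 FPKM on N-SFMA and 35.7 on L-SFMA. SR proteins themselves were nearer to 0, with log2 differences of 0.07 for Srsf5 and 0.04 for Srsf11. Of the 21 genes tested, 21 were above 0 and 5 were past 1.5-fold higher on L-SFMA. Their median was 0.28, and 0.17 with the length trend removed.

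Further myeloid genes, 11 in all and also picked after seeing their values, differed in both directions, 7 lower and 4 higher on L-SFMA. Higher on N-SFMA were Il1rn, the interleukin 1 receptor antagonist, with 32 reads on N-SFMA and 6 on L-SFMA, Cxcl3 with 38 and 16, the leukocyte integrin Itgb2 with 180 and 99, and Lcp1, a leukocyte actin bundler, with 183 and 102, as well as Lst1 with 25 and 10, Plek, pleckstrin, with 165 and 97, and Mmp9 with 270 and 131. Higher on L-SFMA were properdin, Cfp, with 16 and 91 reads, the complement factor C3 with 46 and 129, the cytokine binder Il18bp with 32 and 79, and the lectin Clec4a3 with 2 and 26. All pairs are in that order. The values of several rest on under 100 reads a library.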
